A study of Mus musculus with 19 samples.

Results

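The Slc25 family encodes the mitochondrial solute carriers. The members described here are the genes whose symbol is Slc25a followed only by a number, without Slc25a20 and Slc25a44. The rule used the gene symbol and no measured value. It found 45 members among 55573 genes in the table of 7 mouse tissues, the same number among 55487 genes in the table of brown adipose tissue (BAT), and 38 among 13756 genes in the table of inguinal white adipose tissue (iWAT). The 7 members that the shorter iWAT table did not list were Slc25a2, Slc25a18, Slc25a21, Slc25a31, Slc25a41, Slc25a43 and Slc25a54.

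Carriers of this family sit mostly in the inner mitochondrial membrane, which is closed to most ions and metabolites. Each moves a small set of substrates, usually by exchanging one solute for another: ADP for ATP, phosphate, citrate, amino acids, iron or cofactors. In brown and beige fat they serve mitochondria that burn fuel for heat, and Ucp1, the uncoupling protein of those cells, belongs to the same superfamily under another name. In white fat the citrate carrier delivers carbon for fatty acid synthesis.

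The series held 19 libraries of poly(A) RNA. Single libraries came from heart, tibialis anterior (TA) muscle, brain, liver, small intestine, white adipose tissue (WAT, with no depot given in the sources used here) and BAT of C57BL/6J wild-type (WT) mice on chow, so tissues have no replicates. The other 12 libraries were iWAT and BAT of male mice aged 5 months, on chow and kept at 8 °C for 1 week, 3 WT and 3 MCK-Musclin for each depot. MCK-Musclin mice carry a transgene in which the muscle creatine kinase promoter drives Musclin (gene symbol Ostn), a hormone released by muscle. The transgene is therefore a skeletal muscle one, several founder lines were made on the C57BL/6J background, and the line that was sequenced is not given in the sources used here. All adipose mice of the comparison were cold-exposed, so the contrast is transgene against no transgene in the cold. Per the reporting summary of the study, RNA-seq samples of a genotype came from independent animals, so the spread between libraries of a group includes that between animals.

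Values are FPKM, fragments per kilobase of transcript scaled to the size of the library, which allow levels of different genes to be compared. The depth of iWAT could not be estimated. In the other libraries the smallest common step of the values put the depth at 16.1 to 21.3 mega-fragments (M), an estimate from annotated lengths. All 21 tissue markers checked, 3 for each label, were highest in the library so labelled. Ostn was listed at 0 in all 3 WT BAT libraries and lay between 30.3 and 37.9 FPKM in the MCK-Musclin BAT libraries. In iWAT it was 0, 0 and 0.225 FPKM in WT libraries 1 to 3 and 0, 5.17 and 4.21 FPKM in those labelled MCK-Musclin 1 to 3. The iWAT library labelled MCK-Musclin 1 thus showed no transgene RNA. The muscle gene Ckm, whose promoter drives the transgene, was also listed at 0 in that library and in WT 1. In bulk tissue, fewer cells of a type and less RNA per cell cannot be told apart.

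The sequences upstream of 4 members are shown because these genes form the pairs whose tissue levels parted most clearly, the ADP/ATP carriers Slc25a4 and Slc25a5 and the aspartate/glutamate carriers Slc25a12 and Slc25a13. Each is the 250 bases before the RefSeq start site in GRCm38.p6, read 5′ to 3′ on the strand of the gene, with CG dinucleotides in capitals.
Slc25a4 (chr8:46211063-46211312, minus strand): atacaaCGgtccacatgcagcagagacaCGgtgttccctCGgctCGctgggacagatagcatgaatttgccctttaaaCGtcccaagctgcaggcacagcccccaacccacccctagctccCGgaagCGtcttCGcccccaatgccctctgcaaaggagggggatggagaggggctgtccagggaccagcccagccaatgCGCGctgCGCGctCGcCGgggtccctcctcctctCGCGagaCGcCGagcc
Slc25a5 (chrX:36795347-36795596, plus strand): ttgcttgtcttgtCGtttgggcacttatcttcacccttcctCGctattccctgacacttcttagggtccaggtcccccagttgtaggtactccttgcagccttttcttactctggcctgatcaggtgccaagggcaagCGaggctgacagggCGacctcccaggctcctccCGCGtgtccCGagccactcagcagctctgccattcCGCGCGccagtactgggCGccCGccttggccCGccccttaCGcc
Slc25a12 (chr2:71367756-71368005, minus strand): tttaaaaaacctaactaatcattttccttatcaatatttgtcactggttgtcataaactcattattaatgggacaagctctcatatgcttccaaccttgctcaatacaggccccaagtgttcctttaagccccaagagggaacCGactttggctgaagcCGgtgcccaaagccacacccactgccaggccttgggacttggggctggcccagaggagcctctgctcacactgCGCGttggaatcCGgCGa
Slc25a13 (chr6:6217174-6217423, minus strand): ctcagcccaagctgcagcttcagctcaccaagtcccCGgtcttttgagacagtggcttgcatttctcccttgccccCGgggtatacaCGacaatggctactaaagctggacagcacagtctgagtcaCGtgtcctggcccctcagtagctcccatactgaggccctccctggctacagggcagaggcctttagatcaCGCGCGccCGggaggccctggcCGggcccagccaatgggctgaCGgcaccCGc
These stretches held 18, 14, 6 and 11 CG dinucleotides, respectively, against a median of 6 over 32851 promoters of the same length. RefSeq promoters were matched by symbol for 35 of the 45 members. The estrogen-related receptor motif TCAAGGTCA, searched on both strands in 300 bases around the start, was in none of the 45 member promoters and in 0.423% of all promoters. The core of the NRF1 motif, GCATGCGC, was in the promoters of Slc25a31 and Slc25a54 and in 2.71% of all promoters. Both of those members were under 1 FPKM in every tissue here.

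In the 7 tissues, 40 of the 45 members reached 1 FPKM in at least 1 library. The 5 that did not were Slc25a2, Slc25a31, Slc25a41, Slc25a43 and Slc25a54, and Slc25a2 and Slc25a54 were listed at 0 throughout. Together the members took 0.149% of summed FPKM in BAT, 0.205% in WAT, 0.213% in liver, 0.239% in brain, 0.302% in intestine, 0.308% in heart and 0.344% in TA muscle. BAT, a mitochondria-rich tissue, thus had the lowest share of these 7 libraries. The top 10 genes held 52.4% of summed FPKM in BAT and 51.4% in heart. In FPKM the members summed to 1060 in BAT, above WAT (863) and brain (939) and below liver, intestine, heart and TA muscle. Members with the highest level in BAT numbered 8, or 20.0% of the 40, where 5.72% of all 18327 genes that reached 1 FPKM had theirs in BAT. Liver was the highest tissue of 9 members, or 22.5%, against 8.18% of all genes, and brain of as many against 29.7%. WAT led for 5 members (12.5% against 20.2%), intestine for 4 (10% against 27.1%), heart for 3 (7.5% against 3.65%) and TA muscle for 2 (5% against 5.49%).

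The share of members with a single leading tissue was near that of all genes. The highest tissue was at least 2 times the next, after 1 was added to each FPKM, for 15 of the 40 members and for 37.8% of all genes that reached 1 FPKM. By tissue these were 4 members in liver, where 4.29% of all genes passed, and 3 in BAT, where 0.911% did. There were 3 each in intestine (10.2%) and brain (15.0%), 1 each in heart (1.13%) and TA muscle (1.86%), and 0 in WAT (4.39%). No replicates exist for any of these levels.

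**Figure D1:**
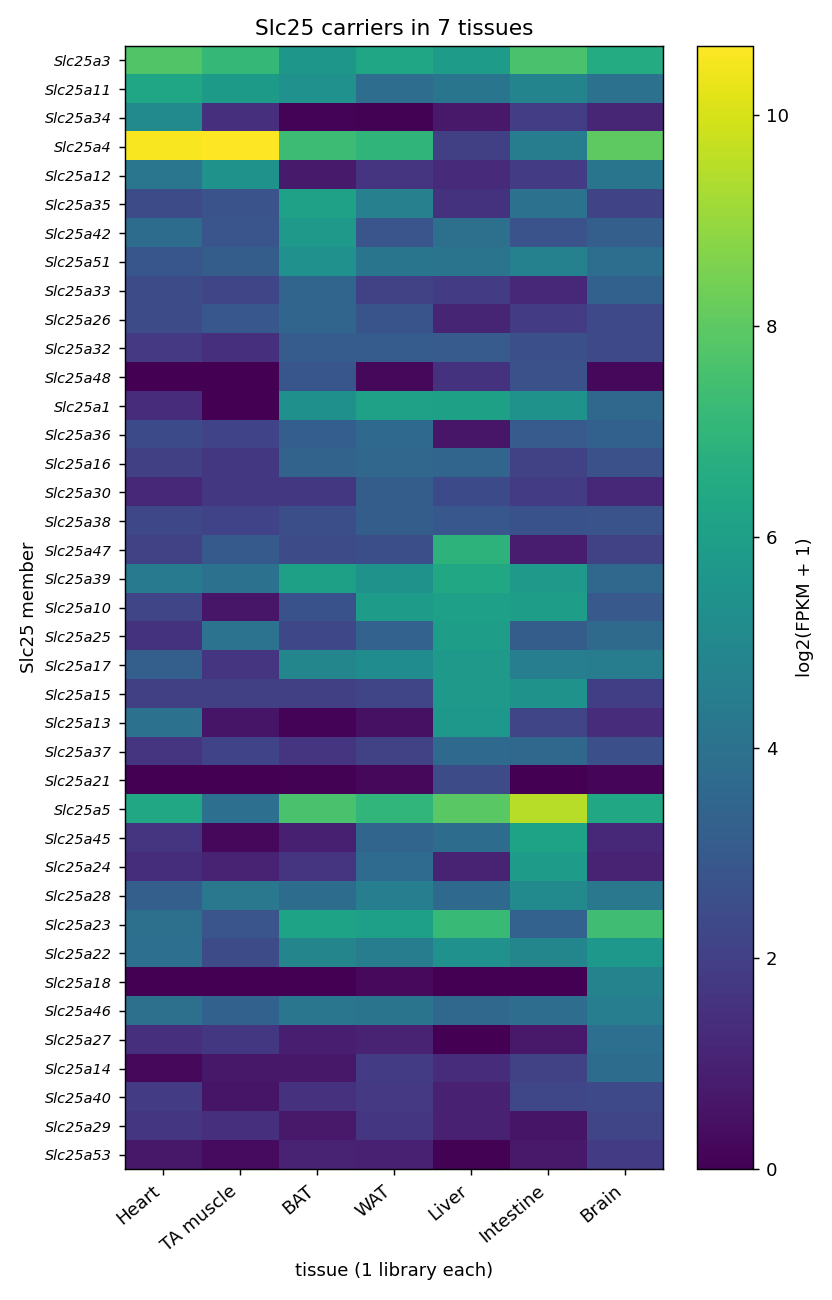
Levels of 39 of the 40 Slc25 members that reached 1 FPKM, as log2(FPKM + 1), in 1 library of each of 7 tissues; rows are ordered by the tissue of the highest level. Slc25a4 stands out in heart (1480 FPKM) and TA muscle (1609 FPKM), Slc25a5 in intestine (719 FPKM), and Slc25a35 and Slc25a42 in BAT.

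By mean FPKM over the 7 tissues, the carriers that supply ATP synthesis, Slc25a4, Slc25a5 and Slc25a3, were the most abundant, but not in every tissue. In liver, Slc25a23 (150 FPKM) and Slc25a47 (117) exceeded Slc25a3 (57.4) and Slc25a4. In brain, Slc25a23 (166 FPKM) exceeded Slc25a3 (94.2) and Slc25a5. Slc25a4, the heart and muscle form of the ADP/ATP carrier, stood at 1609 FPKM in TA muscle, 1480 in heart, 254 in brain, 157 in BAT, 123 in WAT, 22.0 in intestine and 3.10 in liver. Slc25a5, its widely expressed relative, was at 719 FPKM in intestine, 245 in liver, 190 in BAT, 128 in WAT, 83.6 in heart, 81.5 in brain and 13.7 in TA muscle. Tissues at the top for one were at the bottom for the other. Slc25a4 made up 99.2% of the pair in TA muscle, 94.7% in heart and 75.7% in brain, 49.1% in WAT and 45.3% in BAT, but 2.97% in intestine and 1.25% in liver. Slc25a3, which brings in the phosphate that ATP synthase joins to ADP, varied far less, from 49.4 FPKM in BAT to 213 in heart. The coding sequences of Slc25a4 and Slc25a5 shared 77.4% of aligned bases, with a longest identical run of 20 bases.

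The aspartate/glutamate carriers of the malate-aspartate shuttle divided in a similar way. Slc25a12 was at 41.8 FPKM in TA muscle, 17.3 in heart, 16.4 in brain, 2.57 in intestine, 2.12 in WAT, 1.46 in liver and 0.709 in BAT. Slc25a13 was at 50.7 FPKM in liver and 14.9 in heart, and between 0.0772 in BAT and 3.72 in intestine elsewhere. Liver was thus the tissue of Slc25a13 (Slc25a12 was 2.79% of the pair) and TA muscle that of Slc25a12 (98.7%), while heart held both (53.7%). In BAT both were near the bottom of their range. Of the glutamate carriers, Slc25a18 was nearly confined to the brain library, at 26.0 FPKM against at most 0.204 FPKM in the other 6. Slc25a22 was at 49.7 FPKM in brain, 41.5 in liver and 4.40 in TA muscle, its lowest level.

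Among the calcium-regulated ATP-Mg/phosphate carriers, Slc25a23 was at 166 FPKM in brain, 150 in liver, 72.2 in BAT, 63.6 in WAT, 14.3 in heart, 9.14 in intestine and 6.09 in TA muscle. Slc25a24 was at 57.1 FPKM in intestine and 12.2 in WAT, and between 1.05 and 2.06 in the other 5 tissues. Slc25a23 therefore made up between 83.9% and 99.4% of the pair in 6 tissues and 13.8% in intestine. Slc25a25, the third of them, was at 61.6 FPKM in liver and 15.7 in TA muscle, the next tissue.

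Slc25a1, the citrate carrier, was at 66.8 FPKM in WAT, 66.1 in liver, 44.0 in intestine, 39.3 in BAT, 10.8 in brain and 1.57 in heart, and was listed at 0 in TA muscle. Slc25a10, the dicarboxylate carrier, was at 63.9 FPKM in liver, 60.8 in intestine and 56.7 in WAT, but at 5.47 in BAT and 0.544 in TA muscle. Slc25a11, the oxoglutarate carrier, was highest in muscle, at 79.0 FPKM in heart, 54.2 in TA muscle and 40.3 in BAT. Slc25a21, the oxoadipate carrier, was at 4.54 FPKM in liver and at most 0.188 elsewhere. Slc25a15, the ornithine carrier of the urea cycle, was at 52.1 FPKM in liver and 43.3 in intestine and between 2.89 and 3.63 in the other 5 tissues.

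BAT was the highest tissue for several cofactor carriers, but Slc25a16 was highest in WAT (10.3 FPKM) and Slc25a17 in liver (52.8 FPKM). Slc25a42, a coenzyme A carrier, was at 54.0 FPKM in BAT and between 5.62 and 14.3 in the other 6. Slc25a51, the NAD carrier, was at 40.5 FPKM in BAT, 24.5 in intestine and 6.18 in heart, its lowest. Slc25a35, which has no settled substrate, was also highest in BAT, with 67.3 FPKM in BAT, 24.1 in WAT and 1.92 in liver, its lowest.

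The remaining tissue-restricted members lacked a settled substrate or were related to the uncoupling proteins. Slc25a47 was at 117 FPKM in liver and 7.05 in TA muscle, the next tissue. Slc25a34 was at 32.6 FPKM in heart and 2.80 in intestine, the next. Slc25a45 was at 72.0 FPKM in intestine and 12.6 in liver. Slc25a14 and Slc25a27, both related to the uncoupling proteins, were at 12.7 and 13.8 FPKM in brain and at no more than 3.16 and 2.27 FPKM in the other tissues.

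The other pairs moved less. Of the iron importers, Slc25a28 exceeded Slc25a37 in all 7 tissues, and Slc25a37 made up between 12.5% (WAT) and 49.7% (liver) of the pair. Of the glutathione importer Slc25a39 and its relative Slc25a40, the former made up 73.2% in brain and 98.8% in liver at the extremes. Slc25a39 ranged from 11.3 FPKM in brain to 80.6 in liver, with 65.8 in BAT. The pyrimidine nucleotide carriers Slc25a33 and Slc25a36 were near parity in heart, TA muscle, brain and BAT, where Slc25a33 made up 49.6% to 55.9%, but Slc25a33 was 82.5% in liver and 14.6% in intestine. Slc25a46, an outer membrane protein of mitochondrial dynamics, was even, between 8.98 and 22.3 FPKM.

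**Figure D2:**
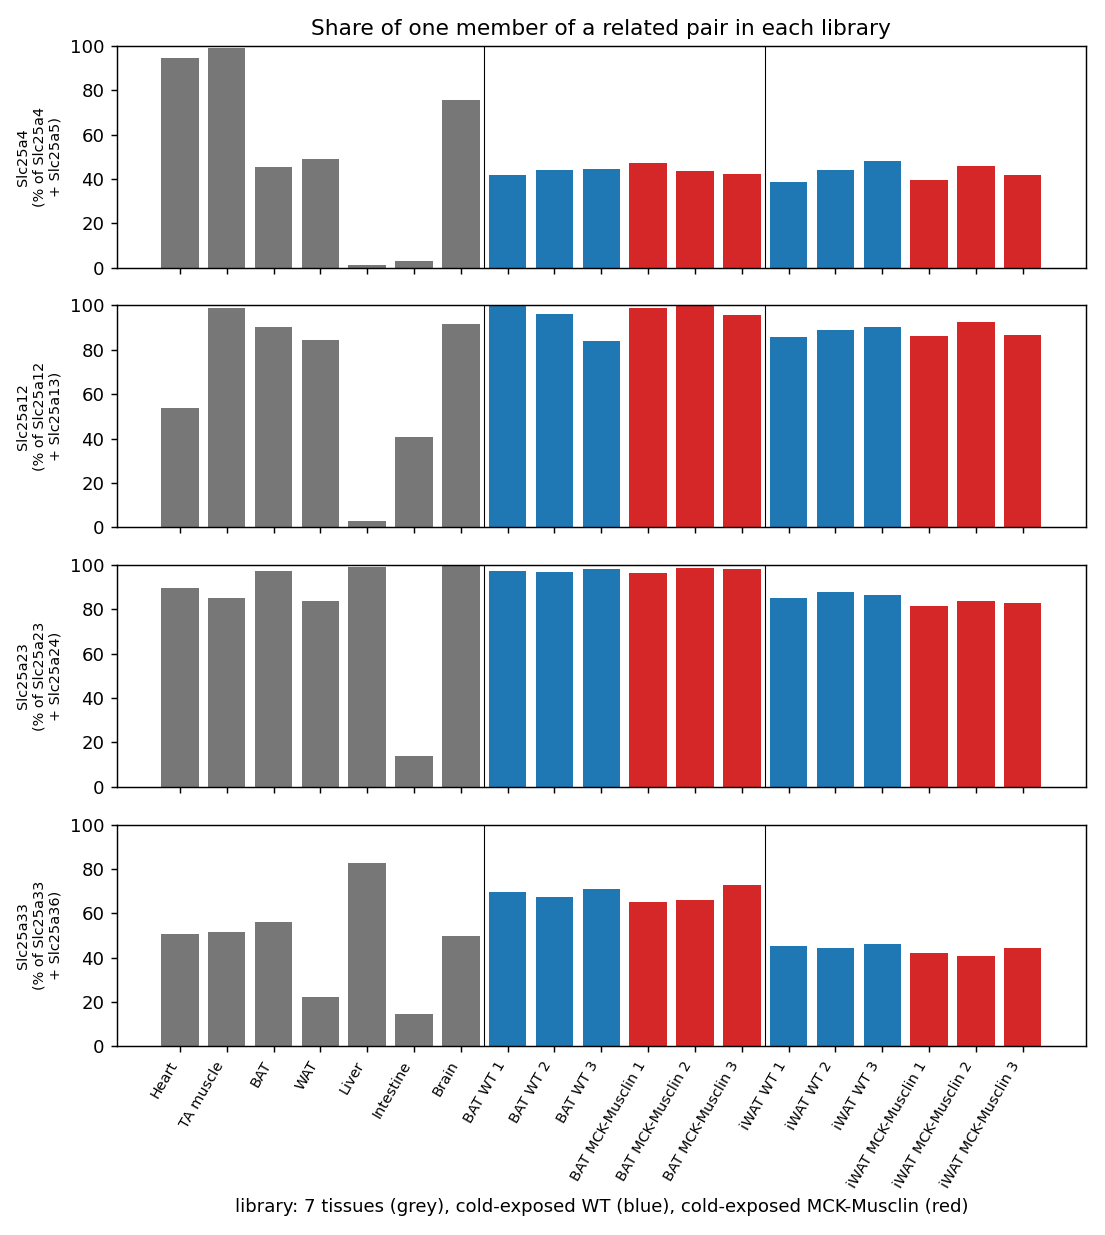
Share of the first-named member in 4 related pairs, in percent of the FPKM sum of the pair, with 1 bar per library: the 7 tissues in grey, cold-exposed WT in blue, cold-exposed MCK-Musclin in red. The Slc25a4 share runs from 1.25% in liver to 99.2% in TA muscle, while in all 12 cold-exposed adipose libraries it stays below 50%.

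The next question was which carriers separated brown from white fat in the cold. The tables were normalized separately, so WT values are set side by side without a test. Summed FPKM ran from 709981 to 720317 in the WT BAT libraries and from 364710 to 368500 in those of WT iWAT. The same FPKM is therefore a larger share of the library in iWAT, and the comparisons below hold for FPKM only. Among the 38 members in both tables, 15 had every WT BAT library above every WT iWAT library, 16 the reverse, and 7 overlapped. The share of all genes that separated in this way was not computed, so these counts are not read as a trait of the family. In FPKM most cofactor carriers were again on the BAT side, while Slc25a16 overlapped, with a mean of 7.91 FPKM in BAT and 7.11 in iWAT. Slc25a42 was at 37.2 ± 2.18 FPKM in BAT and 6.49 ± 2.27 in iWAT (SD, n = 3 each). Slc25a51 was at 65.5 ± 10.7 and 18.8 ± 2.00 FPKM, respectively. Slc25a39 was at 85.1 ± 8.62 FPKM in BAT and 38.7 ± 5.29 in iWAT. On the iWAT side, Slc25a10 was at 78.1 ± 13.6 FPKM in iWAT and 5.90 ± 2.37 in BAT. The ADP/ATP carriers were close in FPKM: Slc25a4 was at 148 ± 4.998 FPKM in BAT and 135 ± 23.4 in iWAT. As a share of the library Slc25a4 was thus higher in iWAT.

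Levels in cold-exposed WT BAT and in the single BAT library of the 7 tissues differed for some members, at shares near those of all genes. Age, housing and normalization of these libraries differ or are not given, so cold cannot be told apart from them. Slc25a34 was at 0.0603 FPKM in the 7-tissue library and at 11.6, 8.61 and 8.87 FPKM in the 3 cold libraries. Slc25a1 was at 39.3 FPKM against 248, 187 and 162, and Slc25a17, a carrier of peroxisomes, at 29.1 against 71.6, 72.1 and 73.1. In the other direction, Slc25a47 was at 4.58 FPKM against 0.945, 1.53 and 0.827, and Slc25a25 at 3.90 against 0.569, 2.13 and 0.837. These 5 were the only ones of 32 members with at least 1 FPKM in either whose ratio, after 1 was added, passed 2 times in either direction: 3 were higher and 2 lower in the cold libraries. That was 9.38% of the members higher and 6.25% lower, against 7.17% and 9.11% of all 12126 genes. The median log2 ratio of cold to 7-tissue levels was 0.02 for the members and -0.27 for all genes. In WAT against cold WT iWAT, 1 of 36 members passed, Slc25a34, at 0.0450 FPKM against 0.643, 1.32 and 2.29, and it was higher in the cold libraries. Over all 12498 genes of that comparison, 7.59% were higher and 4.46% lower.

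**Figure D3:**
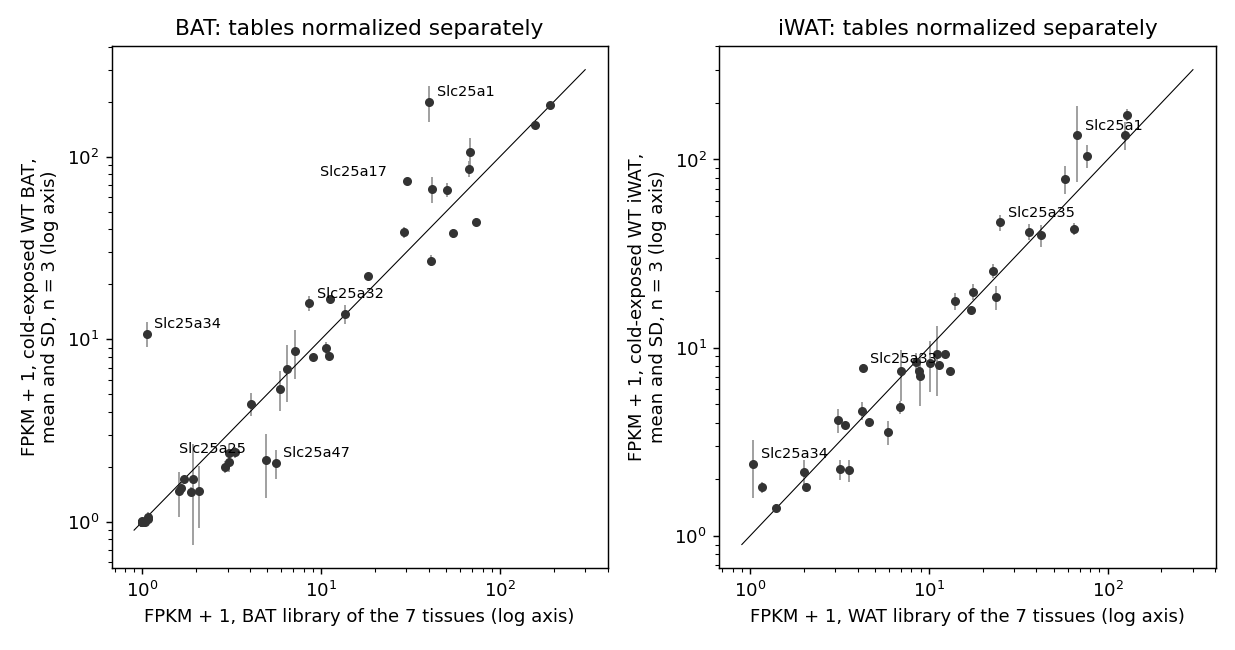
FPKM + 1 of the members in the BAT (left) or WAT (right) library of the 7 tissues on the horizontal log axis and, on the vertical log axis, its mean in the 3 cold-exposed WT libraries of BAT or iWAT with the SD; the line marks equal values. Slc25a34 and Slc25a1 lie above the line in both panels; tables were normalized separately.

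In iWAT the main contrast was MCK-Musclin against WT in the cold. Of the 38 members, 34 had a mean of at least 1 FPKM and were tested. Slc25a13, Slc25a27, Slc25a34 and Slc25a48 fell below that level. In limma on log2(FPKM + 1), a gene was called when its log2 fold change was beyond 0.5 and its unadjusted p under 0.05, and 0 members were called. In that fit 0.902% of all 12197 genes passed as lower and 5.04% as higher, and none had an adjusted p under 0.05 (0.0%). At an unadjusted p under 0.05 without the fold cutoff, 4 members were lower and 0 higher, against 3.44% and 13.1% of all genes (420 lower and 1592 higher). No tool other than limma was run.

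The 4 lower members belonged to cofactor, glutathione and nucleotide transport. Slc25a51, the carrier of NAD, was at 20.3, 19.6 and 16.5 FPKM in WT libraries 1 to 3 and at 15.2, 12.2 and 11.9 in the libraries labelled MCK-Musclin 1 to 3. Every MCK-Musclin library was below every WT library. The log2 fold change was -0.49 ± 0.13 (SE, n = 3 each), with an unadjusted p of 0.00641 and an adjusted p of 0.165 in limma. Slc25a39, the glutathione importer, was at 40.04, 43.3 and 32.9 FPKM in WT and at 31.0, 27.4 and 25.2 in MCK-Musclin. Again the groups did not overlap, and the log2 fold change was -0.46 ± 0.13 (adjusted p = 0.181 in limma).

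Slc25a32, which carries folate or FAD, was at 8.09, 6.24 and 7.83 FPKM in WT and at 5.76, 5.34 and 5.78 in MCK-Musclin. Its log2 fold change was -0.33 ± 0.12 (adjusted p = 0.242 in limma). Slc25a33, one of the pyrimidine nucleotide carriers, was at 6.60, 6.53 and 7.26 FPKM in WT and at 5.42, 5.399 and 5.89 in MCK-Musclin, a log2 fold change of -0.25 ± 0.10 (adjusted p = 0.281 in limma). Both also had groups that did not overlap. With libraries centred on general adipocyte markers, the log2 fold changes shrank to -0.30 for Slc25a51, -0.27 for Slc25a39, -0.15 for Slc25a32 and -0.06 for Slc25a33, and none had a p under 0.05. That centring moved the median of all genes from 0.06 to 0.25 on the log2 scale. Without the library labelled MCK-Musclin 1, 2 members were lower at p under 0.05, and both, Slc25a51 and Slc25a39, then passed the fold cutoff at -0.60 and -0.53. Without WT library 3 the same 2 passed it, at -0.58 and -0.57. Of all 12197 genes, 178 were lower and 700 higher past the cutoff without MCK-Musclin 1, and 108 and 547 without WT 3.

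The groups did not overlap in the lower direction for 7 of the 34 members and in the higher direction for 1, against 5.44% and 17.9% of all genes. Besides the 4 above, the lower ones were Slc25a10, Slc25a23 and Slc25a36, with log2 fold changes of -0.22, -0.19 and -0.10. The higher one was Slc25a24, at 6.72, 6.36 and 6.45 FPKM in WT and 7.67, 7.37 and 7.92 in MCK-Musclin, a log2 fold change of 0.20 ± 0.09 (unadjusted p = 0.0616 and adjusted p = 0.325 in limma). The Slc25a23 share of its pair with Slc25a24 was accordingly 86.5% ± 1.19 in WT and 82.7% ± 1.32 in MCK-Musclin (SD, n = 3), and that of Slc25a33 in its pair with Slc25a36 was 45.2% ± 0.778 and 42.2% ± 1.82. These 2 pairs did not overlap between groups and the 5 other pairs in the iWAT table did. The share of Slc25a4 was 43.7% ± 4.64 and 42.4% ± 3.32.

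**Figure D4:**
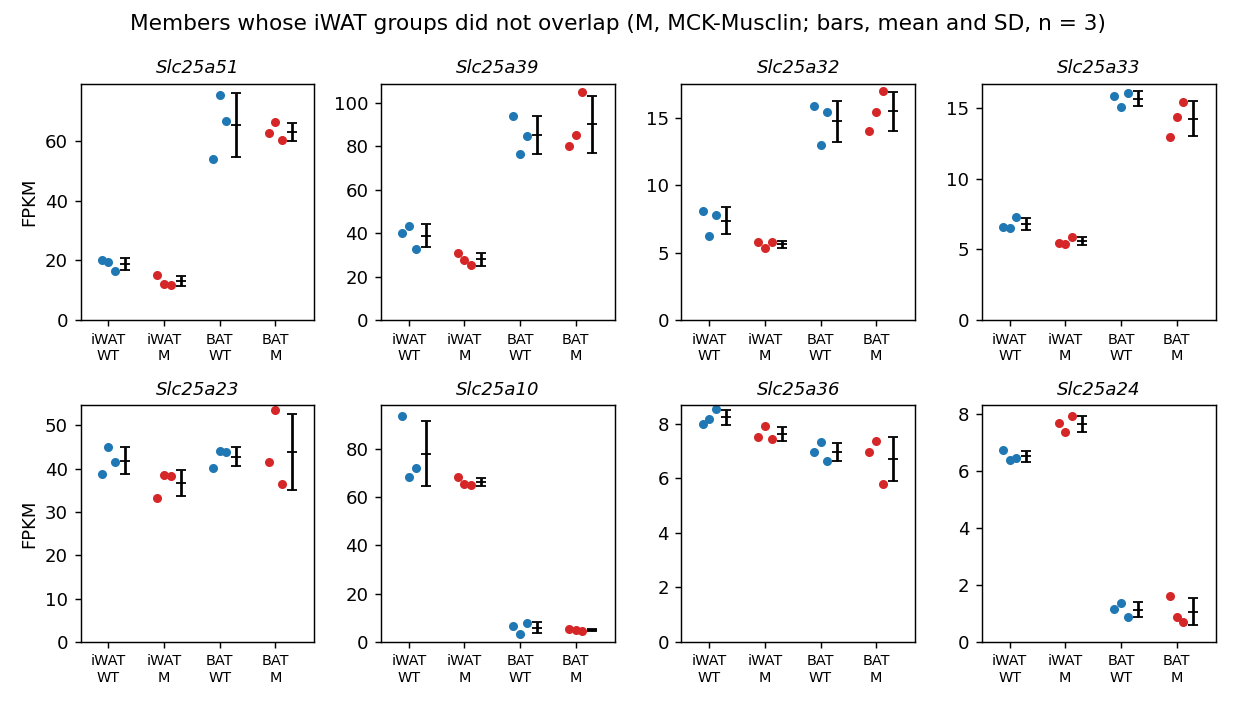
FPKM of the 8 members whose iWAT groups did not overlap, in iWAT and BAT, with 1 point per library (WT in blue, MCK-Musclin, M, in red) and the mean with its SD (n = 3) beside the points. Slc25a24 was higher and the other 7 lower in MCK-Musclin iWAT, and in BAT the groups of all 8 overlapped.

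Most members shared the sign. Of the 34, 24 had a log2 fold change below 0, against 38.7% of all genes, and the median was -0.09 while that of all genes was 0.06. The difference of these medians was -0.147 and lay between -0.205 and -0.136 in the 14 alternatives. After centring on general adipocyte markers 10 of the 34 were below 0 and the member median was 0.10, against 0.25 for all genes, so the sign of the members depends on the scaling. By role, all 3 members for citrate, dicarboxylate and oxoglutarate exchange, 6 of the 7 cofactor carriers, both glutathione and both pyrimidine carriers were below 0, and both iron importers were above. Some members varied widely within a group. Slc25a1, the citrate carrier, was at 199, 112 and 88.5 FPKM in WT and 150, 76.4 and 89.3 in MCK-Musclin. Slc25a42 was at 3.87, 7.89 and 7.72 in WT and 4.79, 4.32 and 4.48 in MCK-Musclin. Without WT library 1 it passed the cutoff, with a log2 fold change of -0.67. In that fit 211 of all 12197 genes passed as lower and 844 as higher. Slc25a45 was at 10.3, 10.6 and 3.95 in WT and 12.2, 5.96 and 16.9 in MCK-Musclin.

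The other carriers of the pairs and of the highest levels overlapped between groups. The ADP/ATP carrier Slc25a5 was at 184, 159 and 174 FPKM in WT and 179, 146 and 145 in MCK-Musclin, and the phosphate carrier Slc25a3 at 114, 110.2 and 87.3 and at 112, 112 and 91.2. The oxoglutarate carrier Slc25a11 was at 17.3, 18.3 and 14.7 FPKM in WT and 16.6, 16.7 and 15.3 in MCK-Musclin. In each of them the group difference was within the range of the libraries. The glutamate carrier Slc25a22 was at 25.8, 22.2 and 25.9 FPKM in WT and at 21.7, 20.97 and 23.8. The iron importer Slc25a28 was at 17.5, 20.4 and 14.8 FPKM in WT and 20.0, 14.3 and 18.97 in MCK-Musclin, and Slc25a37 at 3.65, 4.10 and 3.10 and at 4.69, 3.89 and 3.97. Slc25a12, the aspartate/glutamate carrier, was at 2.90, 2.70 and 3.83 FPKM in WT and 3.45, 3.89 and 4.29 in MCK-Musclin, a log2 fold change of 0.24, and passed p under 0.05 without WT library 3.

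Below the filter, Slc25a48, with no settled substrate, was at 0.947, 0.711 and 0.787 FPKM in WT iWAT and at 0.465, 0.285 and 0.174 in MCK-Musclin. Slc25a34 was at 0.643, 1.32 and 2.29 and at 0.592, 0.279 and 0.349, respectively. In cold WT BAT they averaged 7.61 ± 2.59 and 9.71 ± 1.68 FPKM (SD, n = 3). When no filter was used both had a p under 0.05, and Slc25a34 passed the cutoff. Of all 13756 genes in that fit, 116 were lower and 626 higher past the cutoff.

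Markers of other cells varied between the iWAT libraries, and not every set separated the groups. Brown and beige fat markers summed to 594, 929 and 1102 FPKM in WT 1 to 3 and to 665, 238 and 130 in MCK-Musclin 1 to 3, and 7 of 12 were lower at p under 0.05. That count was 6 without WT 1, 2 without WT 2, 1 without WT 3, 1 without MCK-Musclin 2, 2 without MCK-Musclin 3 and 10 without MCK-Musclin 1. Ucp1 itself was at 130, 248 and 346 FPKM in WT and 173, 31.6 and 2.91 in MCK-Musclin. The median log2 deviation of the 34 members from the WT mean was -0.03, -0.11 and -0.13 in MCK-Musclin 1 to 3. It was 0.019, -0.007 and 0.015 in WT 1 to 3. That of all genes was 0.05, 0.08 and 0.07 in MCK-Musclin 1 to 3. B cell, T cell and lymph node markers summed to between 394 and 701 FPKM in WT and between 816 and 1117 in MCK-Musclin, with 18 of 18 higher at p under 0.05, and Ms4a1 and Cd3e among them. Skeletal muscle markers summed to 42.8, 913 and 5011 FPKM in WT and 45.5, 219 and 258 in MCK-Musclin, with 0 of 18 at p under 0.05. That count depended on the fit: 14 of these markers were lower without WT 1 and 9 with a replicate block, while 2 were higher without WT 3. Slc25a4, at 117, 126 and 161 FPKM in WT and 116, 125 and 104 in MCK-Musclin, was highest in WT 3, as those markers were. General adipocyte markers summed to between 17035 and 18236 FPKM in WT and between 15304 and 17149 in MCK-Musclin, Adipoq from 998 to 1099 and from 849 to 1010. The part of any of these in the carrier values was not tested.

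The other lists of the carrier pathway had medians below 0 in iWAT as reported. After centring on general adipocyte markers the medians were -0.05 for mitochondrial content, -0.05 for enzymes that use carrier substrates, 0.08 for other inner membrane transporters and 0.12 for carrier import. The counts lower at p under 0.05 were then 0, 1, 0 and 0, so the sign or the counts of each list depend on the scaling. Mitochondrial content genes were below 0 for 17 of 18 tested, with a median of -0.23, and 5 were lower at p under 0.05 (Cs, Cycs, Ndufs1, Sdha and Uqcrc2). Without single libraries other than MCK-Musclin 1 that count was 0 or 1, and without MCK-Musclin 1 it was 7. Enzymes that use carrier substrates had a median of -0.24 over 16 tested, with 4 lower and 1 higher at p under 0.05. The lower ones were Gpd1, Gpd2, Ogdh and Fech, and the higher one Got2, the mitochondrial aspartate aminotransferase. Gpd2, the mitochondrial glycerol phosphate dehydrogenase, was at 29.8 ± 5.24 FPKM in WT and 15.9 ± 6.90 in MCK-Musclin (SD, n = 3). Of 22 other inner membrane transporters 4 were lower at p under 0.05 (among them Abcb8, Letmd1 and Mpc1). Without single libraries that count ran from 0 (without MCK-Musclin 2) to 5 (without MCK-Musclin 1), and it was 1 without WT 1, WT 3 or MCK-Musclin 3. The machinery that inserts carriers into the membrane, the TIM22 and TOM subunits, had 0 of 16 at p under 0.05 and a median of -0.07. Ucp2, an uncoupling protein also expressed by immune cells, was at 37.9 ± 1.40 FPKM in WT and 53.3 ± 8.06 in MCK-Musclin, with a log2 fold change of 0.47 ± 0.12 (adjusted p = 0.161 in limma).

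**Figure D5:**
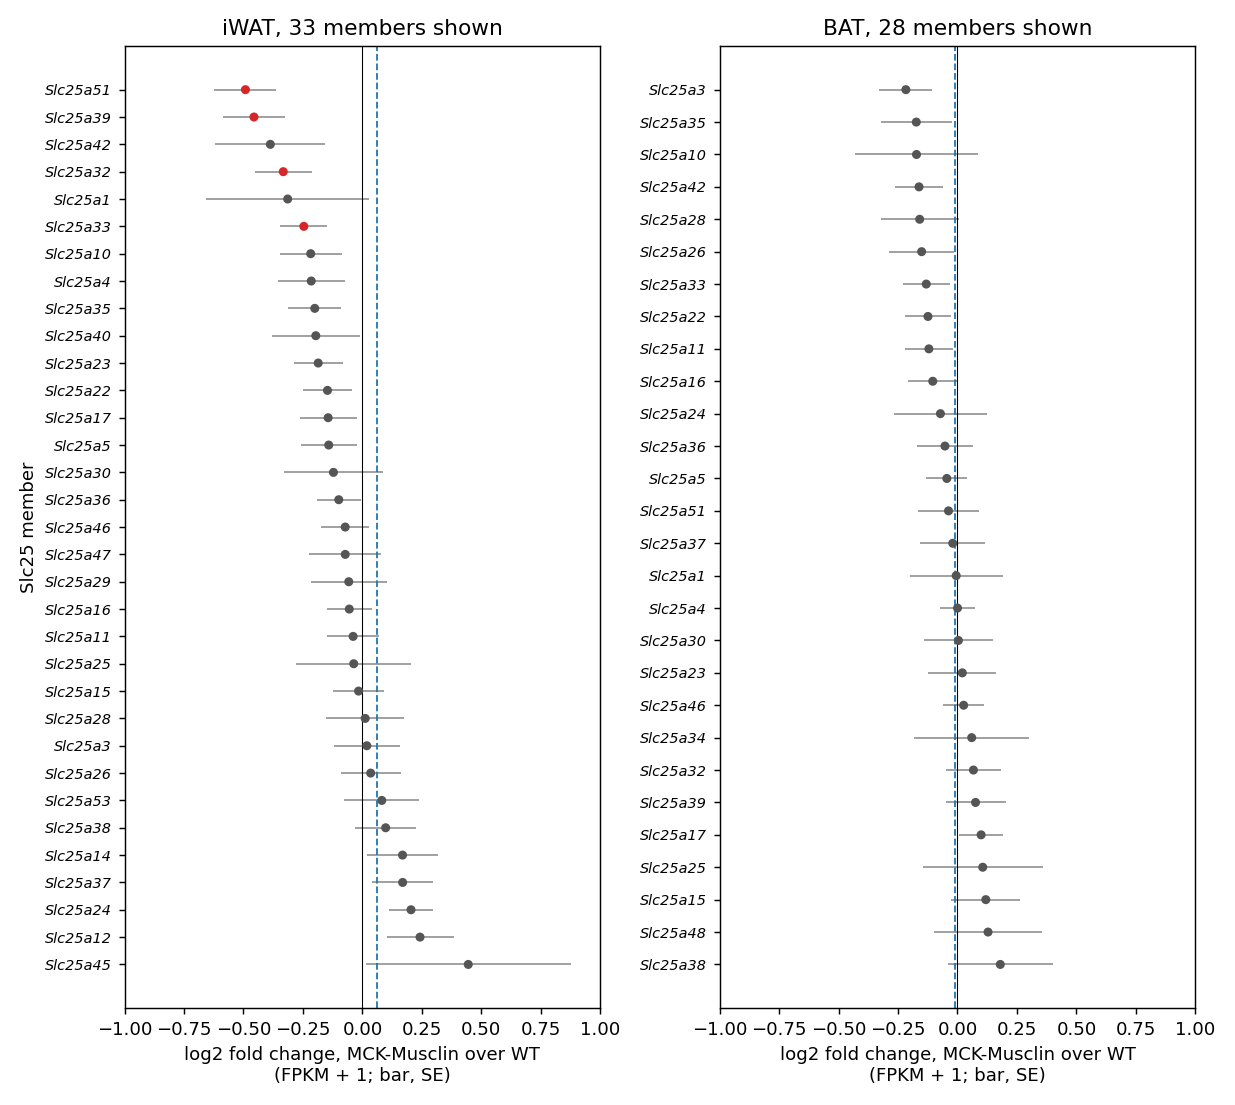
Log2 fold change of MCK-Musclin over WT, from FPKM + 1, with its SE for 33 of the 34 members tested in iWAT (left) and 28 of the 29 in BAT (right); red points have an unadjusted p under 0.05 and the dashed line is the median of all genes. Most iWAT points lie left of the dashed line, and the BAT points spread to both sides of it.

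In BAT no member passed any of these thresholds. Of 45 members 29 had a mean of at least 1 FPKM. With a fold cutoff of 0.3 on the log2 scale and the same p, limma called none, where 2.15% of all 10893 genes passed as lower and 1.85% as higher. None had an unadjusted p under 0.05, against 2.71% of all genes lower and 2.18% higher, and for none did the groups fail to overlap, against 5.63% and 4.38%. In the whole table, only 1 gene had an adjusted p under 0.05 (0.00918%), and it was no member. Log2 fold changes were below 0 for 16 of the 29, against 52.3% of all genes. The median of the members was -0.02, and that of all genes -0.01. Such values do not show that the levels were equal: SEs of the member fold changes ran from 0.07 for Slc25a4 to 0.26 for Slc25a10.

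The smallest p belonged to Slc25a3, the phosphate carrier, at 68.9, 67.5 and 58.8 FPKM in WT BAT and 49.3, 61.2 and 57.3 in MCK-Musclin, a log2 fold change of -0.22 ± 0.11 (unadjusted p = 0.0909 and adjusted p = 0.968 in limma). The groups overlapped. For the 4 members at p under 0.05 in iWAT the BAT groups overlapped. Slc25a51 was at 65.5 ± 10.7 FPKM in WT and 63.2 ± 3.12 in MCK-Musclin (SD, n = 3), Slc25a39 at 85.1 ± 8.62 and 90.1 ± 12.999, Slc25a32 at 14.8 ± 1.53 and 15.5 ± 1.46, and Slc25a33 at 15.7 ± 0.513 and 14.2 ± 1.22. Whether the iWAT and BAT effects differ was not tested, since the tables were normalized separately. Slc25a4 was at 148 ± 4.998 FPKM in WT and 148 ± 4.48 in MCK-Musclin.

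Slc25a5, the ADP/ATP carrier, was at 199, 193 and 185 FPKM in WT and 170, 190 and 199.7 in MCK-Musclin, Slc25a1 at 248, 187 and 162 and at 201, 236 and 156, and Slc25a11 at 23.9, 27.004 and 27.1 and at 21.9, 25.3 and 24.3. These groups overlapped too. Slc25a34 was at 11.6, 8.61 and 8.87 FPKM in WT and 7.39, 9.08 and 15.1 in MCK-Musclin. The 8 pair shares overlapped between BAT groups without exception. Skeletal muscle markers summed to between 609 and 967 FPKM in WT BAT and between 1006 and 2237 in MCK-Musclin, with 13 of 20 higher at p under 0.05. Without single libraries that count ran from 7 (without WT 3) and 8 (without WT 1) to 16 (without MCK-Musclin 2). Ucp1 was at 3792, 3095 and 2778 FPKM in WT and 3500, 2864 and 3607 in MCK-Musclin. Timm9, which chaperones carriers to the inner membrane, was the one of 16 import genes at p under 0.05, with 10.5 ± 0.884 FPKM in WT and 13.6 ± 0.339 in MCK-Musclin (adjusted p = 0.929 in limma). Mitochondrial content genes had 1 of 18 lower, Phb2, and a median of 0.03. Of 18 other inner membrane transporters, Mpc1 and Sfxn1 were lower at p under 0.05. Of 16 enzymes that use carrier substrates, Alas1 was lower and Got1 higher, and the uncoupling protein Ucp3 was higher too. Each had an adjusted p of 0.968 in limma. Without single libraries the lower transporters numbered 0 to 2 and the lower enzymes 0 to 1.

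By position, 14 of the 45 genes had exons that overlapped exons of another gene in GENCODE M21, GRCm38. Among the members the iWAT results turn on, Slc25a10 and Slc25a23 on the opposite strand, Slc25a33 on the opposite strand and Slc25a51 on the same strand were such genes. Among those named for their tissue levels, so were Slc25a11, Slc25a18, Slc25a21, Slc25a25, Slc25a35, Slc25a37 and Slc25a46 on the opposite strand. Slc25a47 was one on the same strand. The reads carried no strand, so values of these genes may include reads of the partner. Slc25a39 (chr11:102402985-102407946) and Slc25a32 (chr15:39091231-39112716) had no such overlap.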

How the data were processed

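Per the submitters' processing notes, poly(A) RNA libraries were filtered with fastp and Bowtie2 2.4.1 (the methods of the study name an earlier Bowtie2 version). Reads were aligned without strand to GRCm38 with HISAT2 2.1.0, and the authors deposited FPKM per gene in 3 tables that were normalized separately. The iWAT table also holds log2 fold changes, p-values and group means of a normalized signal that the authors computed for their own comparison before they deposited it, none of which was used. From the FPKM, 287 repeated lines were dropped in each of the 7-tissue and BAT tables. Genes with a mean of at least 1 FPKM over the 6 libraries of a table were fitted on log2(FPKM + 1) with limma 3.58.1 (trended eBayes, Benjamini-Hochberg over all genes, no covariate), so fold changes of low genes are understated. Fits were tested on simulated data with independent normal noise and changes only in genes above a minimum level. A call there was an adjusted p under 0.05 in limma. Of 100 genes changed by a log2 of 1, 78 of the iWAT (12197 genes) and 76 of the BAT (10893 genes) fit were called. Unchanged genes called numbered 9 and 10, respectively. That call differs from the one used for members, so these counts do not give its power in the real libraries. Tissues had 1 library each and no test. Members, pairs, role groups and lists were chosen with earlier results of these data known. Every member could be named; values per library were planned for members at p under 0.05, the 8 highest by mean, pair members and members at least 2 times the next tissue, and some of these are given as a mean or range. Alternatives were other pseudocounts, filters, scalings, a replicate block and leaving out each library. The values of 1 member and 1 other gene are not reported here, and counts over the family include that member.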

Additional observations from a re-analysis of the deposited data

How the results depend on the processing

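In iWAT, 0 members passed the cutoff as reported, 1 passed with a pseudocount of 0.1 (Slc25a51) and 1 with no filter on low values (Slc25a34), and 2 passed with median-ratio scaling or rescaling to TPM (Slc25a51 and Slc25a39). Leaving out single libraries gave 0 to 2. Of all genes, 110 passed as lower and 615 as higher in the reported fit. The pseudocount gave 150 and 811, no filter 116 and 626, median-ratio scaling 187 and 426, and TPM 201 and 605. Without single libraries these counts ran from 92 to 211 and from 530 to 844. The count of members lower at p under 0.05 was 4 as reported, 0 after centring on general adipocyte markers, when 3 were higher (Slc25a12, Slc25a24 and Slc25a37), and 2 to 4 without single libraries, with 0 to 1 higher. In BAT, 1 member was higher at p under 0.05 with no filter (Slc25a2, near 0 FPKM). Without single BAT libraries 0 to 2 members passed the cutoff, 0 to 1 were lower and 0 to 1 higher, the 2 being Slc25a10 and Slc25a25 without WT library 2, and the difference between the member median and that of all genes was -0.0114 as reported and ran from -0.0489 (without MCK-Musclin 2) to 0.0024 (without MCK-Musclin 3). Of all 10893 BAT genes, 247 were lower and 247 higher past the cutoff without WT library 2. The cause of the shifts between fits was not tested. Members at least 2 times the next tissue numbered 14 with TPM and 16 with a pseudocount of 0.1. Pairs that did not overlap numbered 2 to 3 without single libraries. Replicate numbers are shared between groups, but deviations of same-numbered libraries correlated at 0.23, 0.06 and 0.11 in iWAT and at -0.10, -0.005 and 0.009 in BAT, so they were not taken as pairs, and not every library correlated best with its own number. With a replicate block 3 members in iWAT and 0 in BAT were lower at p under 0.05. Over all iWAT genes, 420 were lower and 1592 higher at p under 0.05 as reported, 826 and 1038 with median-ratio scaling, 657 and 1198 with TPM, and 47 and 4123 after the centring, which moved the median of all genes from 0.06 to 0.25 and gave 1094 genes an adjusted p under 0.05. In BAT the centring moved that median from -0.01 to 0.10 and the counts from 295 lower and 238 higher to 66 and 444; TPM gave 228 and 269. Depth limits members under 1 FPKM most.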
